A study of Homo sapiens with 20 samples.

Results

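Accessible chromatin of SW872 cells expressing full-length CAMTA1 was compared with that of cells carrying the empty vector (EV), as 3 sets of peaks. Shared peaks were those of 1 list that overlapped a peak of the other by 1 bp or more. Gained peaks were CAMTA1 peaks with a summit −log10 p of 6 or more and no EV peak within 1 kb, and lost peaks were EV peaks found by the same rule the other way. The rule found 3622 gained peaks among the 223651 of the CAMTA1 list, which is 1.62% of them, and 28 lost peaks among the 171102 of the EV list, which is 0.0164%. Of the CAMTA1 peaks, 118879 were shared with EV, and of the EV peaks, 136585 were shared with CAMTA1. "Gained" and "lost" name the outcome of this rule on a pair of lists and are not the outcome of a test.

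SW872 is an established human liposarcoma line. Cells were stably transduced by retrovirus with constructs in the pBabeNeo vector and kept as pooled lines under G418 selection. The EV cells thus share the virus, the vector and the selection with the CAMTA1 cells and lack the insert. For its RNA-seq, the paper harvested lines containing CAMTA1 below confluence and the other lines after growth to confluence. It gives no cell density for the chromatin libraries used here. The CAMTA1 construct carried a double Flag tag. The CAMTA1 and EV groups had 3 libraries each, and the third EV library is titled a redo, with no word on what was repeated. The study also profiled the fusions TAZ-CAMTA1 and YAP-TFE3, full-length TFE3, and YAP5SA and TAZ4SA, forms of YAP and TAZ with serines mutated to alanine. The titles of the YAP-TFE3 libraries name the YAP part as Yap5SA. These 5 lists serve below as a reference that the rule did not use.

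CAMTA1 belongs to the calmodulin-binding transcription activators. Proteins of this family carry a CG-1 domain that binds DNA, a TIG domain, ankyrin repeats and IQ motifs that bind calmodulin. In epithelioid hemangioendothelioma, a vascular sarcoma, a translocation joins the N-terminal part of TAZ to the C-terminal part of CAMTA1. The study used full-length CAMTA1 as a control for that fusion. The full-length protein also has the N-terminal part of CAMTA1, which the fusion lacks, so it is not the CAMTA1 portion of the fusion alone. ATAC-seq reads open chromatin through a transposase that inserts sequencing adapters where DNA is not packed in nucleosomes, and a peak is a stretch where such insertions pile up.

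Each vector had a single deposited peak list in hg19 (GRCh37) coordinates, so the values below carry no replicate error and no test was run. Read depth is not known for any of the lists. The lists held 152702 to 236893 peaks each, and the CAMTA1 list was longer than the EV list at 98274341 against 70596855 covered bases. A summit −log10 p of 6 or more, called strong from here on, was reached by 73556 CAMTA1 peaks (32.9%) and 46845 EV peaks (27.4%). An effect of the CAMTA1 construct on the list and an effect of depth, library quality or cell density at harvest cannot be told apart. Peak lists do not show how much CAMTA1 the cells made, and markers of the line were not checked without gene positions of this build.

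Nearly every strong EV peak had a CAMTA1 counterpart, whereas some strong CAMTA1 peaks had none in EV. Of the strong EV peaks, 46787 (99.9%) overlapped a CAMTA1 peak, 30 lay within 1 kb of one and 28 were lost. Of the strong CAMTA1 peaks, 68300 (92.9%) overlapped an EV peak, 1634 lay within 1 kb of one and 3622 were gained. The ratio of gained to lost peaks was 129 (95% interval 89.4 to 187, from counting error only). This size depended on the different number of strong peaks in the lists. With the CAMTA1 summit limit raised to 7.74, 46845 CAMTA1 peaks passed, as many as the strong EV peaks. Neighbours were still sought among all peaks of the other list. Under this choice, made after seeing the data, 433 CAMTA1 peaks were gained and the ratio was 15.5. Trimming the CAMTA1 list to the length of the EV list as well gave 433 gained and 68 lost peaks, a ratio of 6.37.

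**Figure D1:**
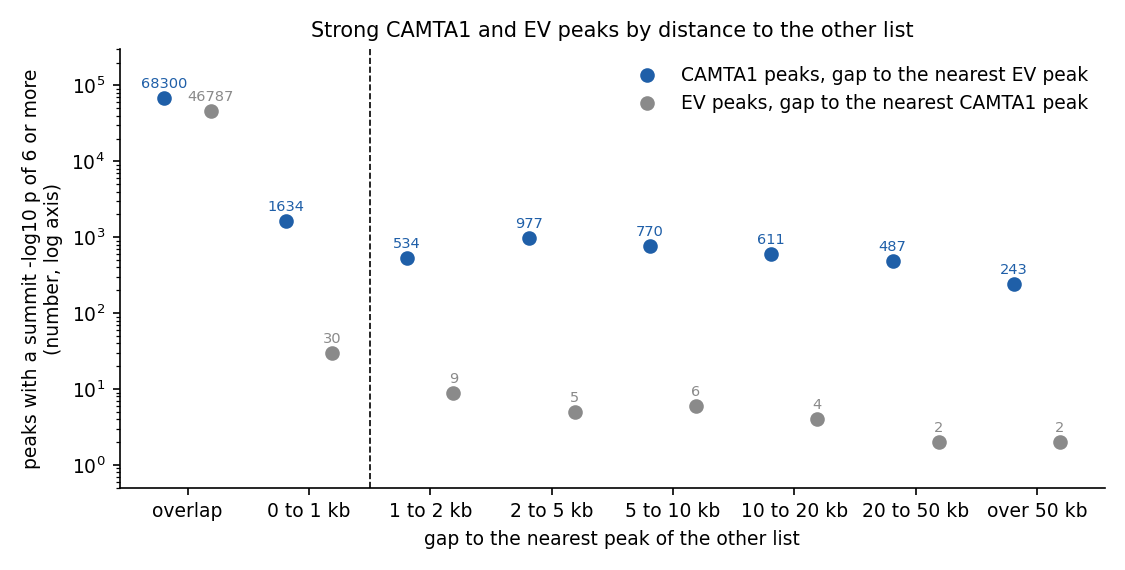
Number of strong peaks (summit −log10 p of 6 or more, log axis) of the CAMTA1 list (blue) and the EV list (grey) by the gap to the nearest peak of the other list, with the limit of 1 kb as a dashed line. Beyond 1 kb the CAMTA1 counts run from 243 to 977 per class of distance and the EV counts from 2 to 9.

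The gained peaks were not all close to an EV peak that just missed the limit. Their median gap to the nearest EV peak was 6588 bp, 1340 of them (37.0%) lay over 10 kb from any EV peak and 242 (6.68%) over 50 kb, leaving out 1 gained peak on a contig without EV peaks. At the edge of the rule, 534 gained peaks had their EV neighbour between 1 and 2 kb away, the nearest of them at 1001 bp, and the farthest strong peak left out lay at 999 bp. The summit limit cut through a dense part of the distribution. The lowest summit inside was 6.003 and the highest outside 5.9998, with 1604 gained peaks between 6 and 6.5 and 2641 isolated CAMTA1 peaks between 5.5 and 6. Another 51459 CAMTA1 peaks also had no EV peak within 1 kb and fell short of the summit limit, against 14524 EV peaks in the opposite direction.

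Gained peaks were mostly moderate ones. Their area, taken under the significance curve of the peak caller, ran from 170 to 3553 with a median of 484 (quartiles 352 and 684). Whether this area is counted from 0 or from a calling threshold is not given in the sources used here. The summit −log10 p, which the rule used, had a median of 6.60 and reached 10.5, and 10 gained peaks (0.276%) stood at 10 or more. Strong CAMTA1 peaks shared with EV had a median area of 1566 and a median summit of 9.14, and 28503 of them (41.7%) reached a summit of 10. Every CAMTA1 peak with a summit above that of the tallest gained peak thus overlapped an EV peak. Width went the same way. The median gained peak was 356 bp wide against 817 bp for strong shared peaks, and 44 gained peaks (1.21%) were wider than 1000 bp against 40.3% of the strong shared ones. Taken per base, the difference was smaller, with a median area per bp of 1.48 for gained and 2.19 for strong shared peaks.

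Set beside all shared CAMTA1 peaks, weak ones included, the gained peaks had like medians and a narrower range. The shared peaks had a median area of 508, a median summit of 6.62 and a median width of 410 bp, with quartiles of area from 149 to 1962. Isolated CAMTA1 peaks under the summit limit had a median area of 58.1 and a median width of 107 bp. The 28 lost peaks were smaller than the gained ones, with a median area of 326, a median summit of 6.25 and a median width of 234 bp. Their highest summit was 7.16 and none exceeded 1000 bp. Since summit, area and width rise together, and the rule used the summit, these values describe the sets.

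**Figure D2:**
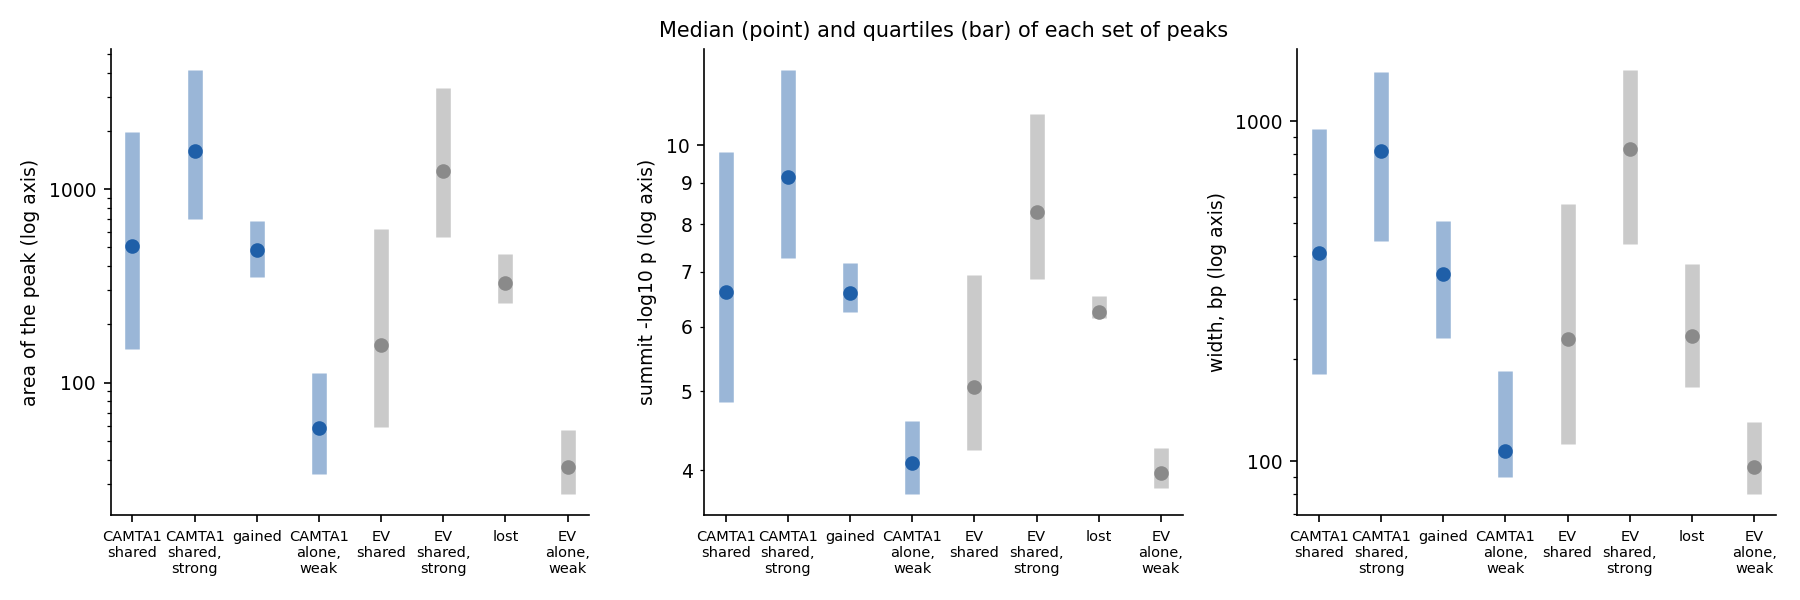
Median (point) and quartiles (bar) of the area, the summit −log10 p and the width in bp, each on a log axis, for the sets of CAMTA1 peaks (blue) and EV peaks (grey); strong means a summit of 6 or more and alone means no peak of the other list within 1 kb. The gained peaks, with median area 484, lie below the strong shared CAMTA1 peaks, with median area 1566.

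The gained peak of largest area lay on chromosome 15 from 40355472 to 40357020. It was 1549 bp wide, with an area of 3553 and a summit of 9.85, and the nearest EV peak was 4368 bp away. At the same place the YAP5SA list had a peak of area 3262 and the YAP-TFE3 list one of 3229. The areas there were 1125 for TAZ4SA, 578 for TFE3 and 576 for TAZ-CAMTA1 (the larger peak where a list had more than 1). The site was thus held by every list but EV, at sizes that differed widely.

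The next by area was on chromosome 10 from 50576993 to 50578084, with an area of 2783 in CAMTA1 and of 494 to 1391 in the other lists. Here CAMTA1 had the largest area of all 7 lists. On chromosome 7 from 157599574 to 157600639, the CAMTA1 area of 2582 was exceeded by YAP5SA at 3871 and was close to TAZ4SA at 2353, with YAP-TFE3 at 1525 and TAZ-CAMTA1 at 1002. Its summit of 10.4 also put this peak among the 5 gained peaks with the highest summits. The fourth by area, on chromosome 9 from 19999127 to 20000057, was 52427 bp from the nearest EV peak. Its area was 2369 in CAMTA1, 2405 in YAP-TFE3 and 2388 in TAZ4SA, but 54.4 in TAZ-CAMTA1.

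The fifth by area showed the opposite order. On chromosome 22 from 40722909 to 40723810, CAMTA1 had an area of 2338 and TAZ-CAMTA1 one of 2785, with YAP-TFE3 at 1802, TFE3 at 665, YAP5SA at 290 and TAZ4SA at 180.

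The highest summit of a gained peak, 10.5, was on chromosome 4 from 37694769 to 37695741, where YAP5SA had the higher summit at 12.6 and TAZ-CAMTA1 stood at 6.27. Summits of the other peaks named for height were 10.5 on chromosome 3 (197205579 to 197206377), 10.4 on chromosome 7 (4285283 to 4285998) and 10.2 on chromosome 6 (158909076 to 158909585). In TAZ-CAMTA1 these 3 sites had summits of 7.54, 7.52 and 5.43. All 9 gained peaks named by area or summit were present in each of the 5 other lists, as were 41.7% of all gained peaks. Of the 9, 7 had a lower area in TAZ-CAMTA1 than in YAP5SA. Over all gained sites the median areas were close, 243 in TAZ-CAMTA1 and 251 in YAP5SA, so the 9 do not stand for the set. No annotation of this build was used, so the genes around these sites are not named.

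Most gained sites were also open in cells with other constructs. The YAP-TFE3 list held 3457 of the 3622 gained peaks, or 95.4% (Wilson 95% interval 94.7 to 96.1%), by an overlap of 1 bp or more. TAZ-CAMTA1 held 90.6% (89.6 to 91.5%), TFE3 83.4% (82.2 to 84.6%), YAP5SA 83.2% (81.9 to 84.4%) and TAZ4SA 57.5% (55.9 to 59.1%). The fusion that contains part of CAMTA1 was not the list that held most of them. With 152702 peaks from every list, TFE3 held 82.6% and TAZ-CAMTA1 78.7%, the reverse of their order above. Of the full lists, TAZ-CAMTA1 lacked 288 gained peaks that YAP-TFE3 had and held 112 that YAP-TFE3 lacked. The TFE3 list, of a group with 2 libraries, is shorter than the EV list, at 156421 peaks. It still held 3022 peaks that EV did not have within 1 kb.

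These shares were lower than those of strong peaks shared with EV, of which TAZ-CAMTA1 held 99.8%, YAP-TFE3 99.7%, TFE3 99.0%, YAP5SA 97.0% and TAZ4SA 84.5%. Because gained peaks had lower summits, peaks of like summit were compared next. Shared peaks were chosen for overlapping an EV peak, and gained peaks for having none within 1 kb. A lower share of gained peaks in other lists of the same cell line can follow from that choice alone. Matching the summit does not remove it, so the comparison cannot show what CAMTA1 did at these sites. Between 6 and 6.5, gained peaks were held by TFE3 in 76.2% of cases and shared peaks in 94.1%. TAZ-CAMTA1 held 88.2% of the gained and 99.2% of the shared peaks, YAP-TFE3 93.0 and 98.4%, YAP5SA 76.8 and 87.0%, and TAZ4SA 48.8 and 52.4%. In this band the intervals of gained and shared peaks did not overlap in any of the 5 lists. Those of TAZ4SA nearly met, with limits of 51.2 and 51.3%. The intervals cover counting error only and treat the peaks of 1 list as independent, so this is not a test. For TAZ-CAMTA1 the shares were 96.9 against 99.9% between 8 and 9, and 96.1 against 99.96% between 9 and 11. TAZ4SA held 55.4 against 62.3% between 6.5 and 7, 67.4 against 73.9% between 7 and 8, and 83.0 against 85.6% between 8 and 9, where the intervals overlapped. Between 9 and 11, with 77 gained peaks, it held 83.1% (73.2 to 89.9%) against 95.1% (94.7 to 95.5%), so its gap did not narrow steadily with the summit. Isolated CAMTA1 peaks under the summit limit were held far less often, by 52.7% for YAP-TFE3, 51.7% for TAZ-CAMTA1 and 16.0% for TAZ4SA.

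**Figure D3:**
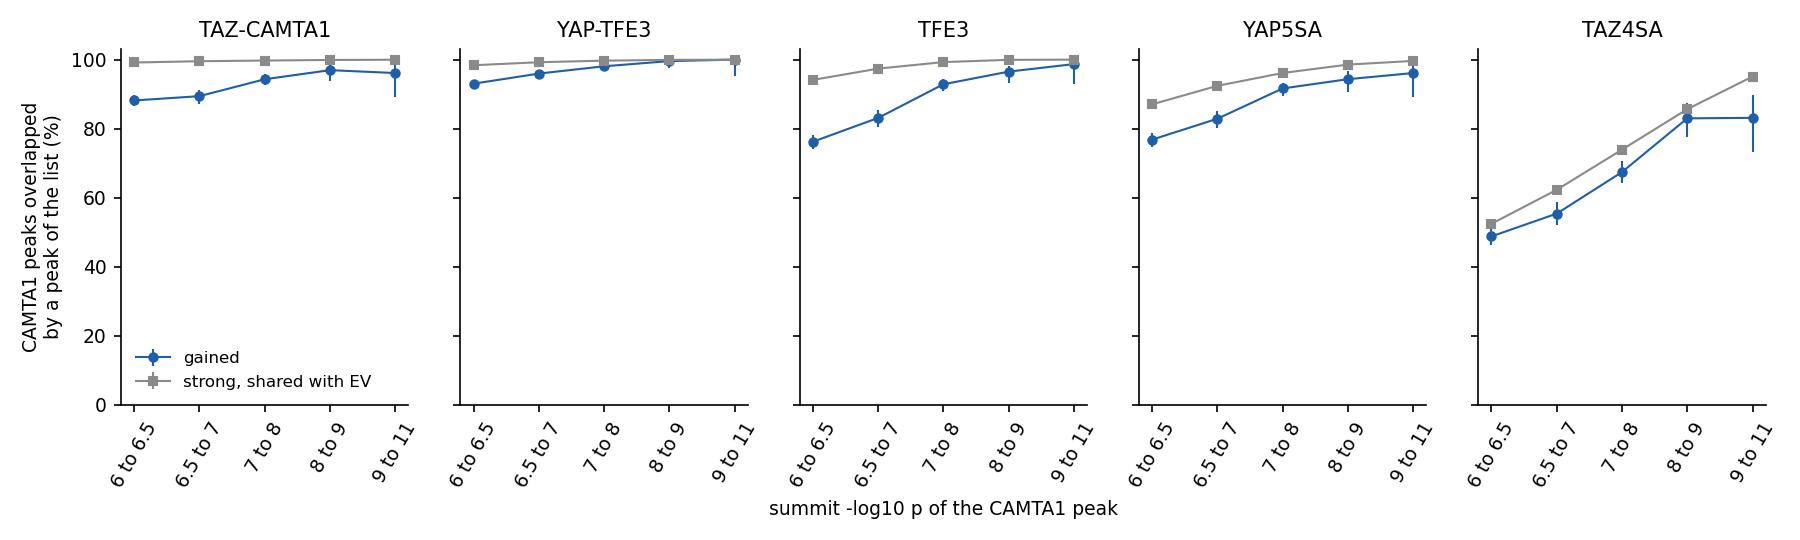
Percentage of gained CAMTA1 peaks (blue) and of strong CAMTA1 peaks shared with EV (grey) that a peak of each other list overlapped, by the summit −log10 p of the CAMTA1 peak; bars are Wilson 95% intervals. Between 6 and 6.5 the gained peaks are below the shared ones in all 5 panels, from 48.8% in TAZ4SA to 93.0% in YAP-TFE3. Both sets were chosen by their EV peaks, so lower shares of gained peaks can follow from that choice alone.

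Counted by site, 1510 gained peaks (41.7%) were in all 5 other lists, so that EV was the one list without them. Another 1281 (35.4%) were in 4 of them, and for 878 of these the missing list was TAZ4SA. Gained peaks in 3, 2 and 1 of the lists numbered 590, 179 and 54. Area and width went with this number. Gained peaks in all 5 lists had a median area of 589 and a median width of 428 bp, and those in 1 list had 328 and 248 bp. Of the strong shared peaks, which were chosen for overlapping an EV peak, 82.9% were in all 5 other lists.

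Gained peaks that the CAMTA1 list had for itself were few. The 51459 isolated CAMTA1 peaks under the summit limit were not counted in this way. No other list overlapped 8 gained peaks (0.221%), which were on 7 chromosomes, 138 to 722 bp wide, with summits from 6.07 to 7.74. For 4 of the 8, another list had a peak within 1 kb. The remaining 4 were more than 1 kb from any peak of all 6 other lists. Of these, the one on chromosome X from 139826256 to 139826569 had an area of 503 and lay 9858 bp from the nearest other peak. The peaks on chromosomes 19 (52253359 to 52253539) and 20 (36886086 to 36886223) had areas of 280 and 242 and lay 1301 and 1506 bp from another list. The fourth, on chromosome 8, had an area of 797 and a summit of 7.74, with an EV peak, 23221 bp away, as its nearest neighbour in the other lists. These 4 were singled out after their values were seen.

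The other lists often had the gained sites at lower significance. This direction is partly set by the rule, which chose the sites by their CAMTA1 summit and put no limit on the other lists. Peaks of YAP-TFE3 at gained sites had a median summit of 6.05, and 51.0% of them were strong by the same limit. For YAP5SA the median was 5.64 and 42.7% were strong, for TAZ-CAMTA1 5.27 and 30.2%, and for TAZ4SA 5.09 and 26.9%. The TFE3 peaks there were the weakest, with a median summit of 4.54 and 118 strong ones (3.56%). TFE3 thus marked 83.4% of the gained sites, nearly all below the limit that chose them in CAMTA1. At strong shared sites the same lists had median summits of 9.26, 7.07, 9.12, 5.86 and 6.31, in the order named.

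The same rule was applied to each other list against EV, and all of these comparisons share the EV list. YAP5SA had 7282 gained and 309 lost peaks, YAP-TFE3 6127 and 77, and TAZ-CAMTA1 3098 and 49. TAZ4SA had 1870 and 2123, and TFE3 130 and 203. Per 1000 strong peaks of the list, gained peaks numbered 49.2 for CAMTA1, 41.4 for TAZ-CAMTA1, 76.1 for YAP-TFE3, 105 for YAP5SA, 42.0 for TAZ4SA and 2.74 for TFE3. The lost peaks of CAMTA1 were the fewest of the 6. A large excess of gained over lost peaks was therefore also present for both fusions and YAP5SA.

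From the side of CAMTA1, EV was not the list that lacked most of its strong peaks. Of the 73556 strong CAMTA1 peaks, 8906 had no TAZ4SA peak within 1 kb, against the 3622 without an EV peak. YAP5SA lacked 1774, TFE3 930, TAZ-CAMTA1 379 and YAP-TFE3 270. This was not the order of list length, as TFE3, a group with 2 libraries, had 156421 peaks and YAP5SA 230886. The part of depth in it was not tested.

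**Figure D4:**
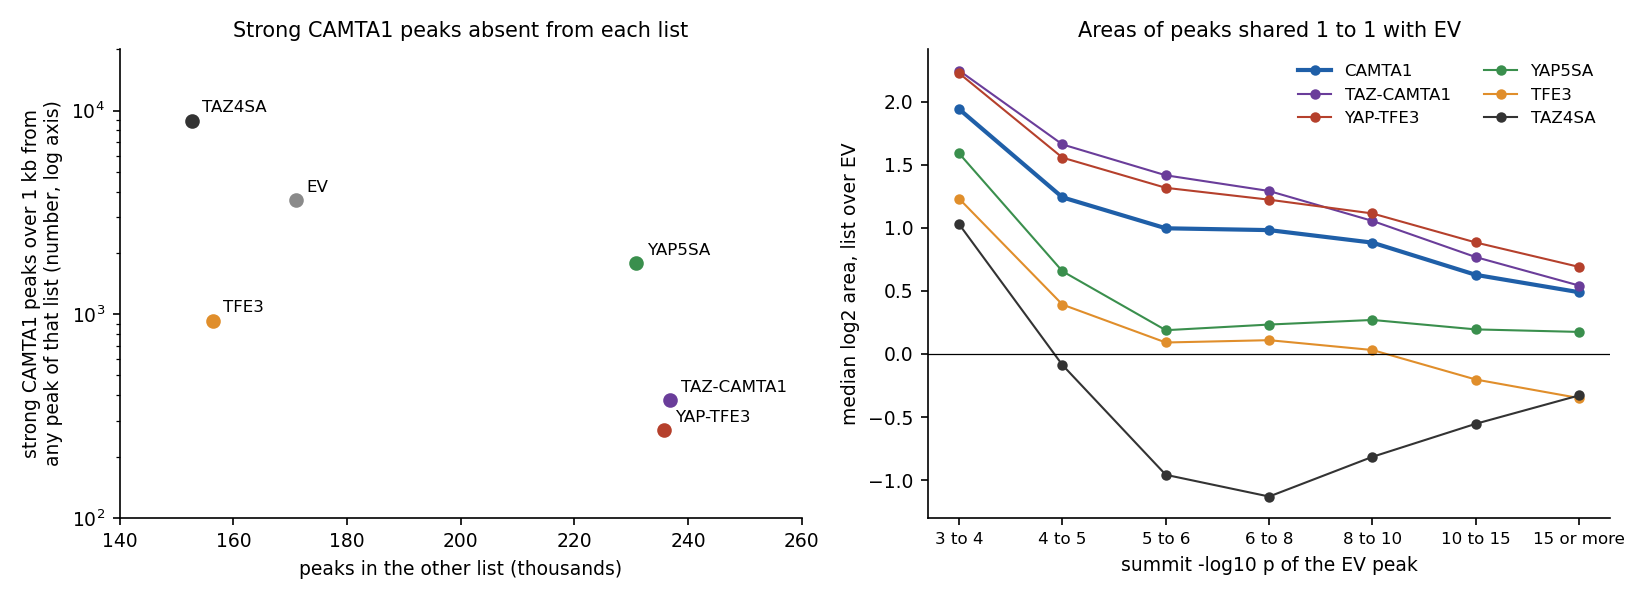
Left, number of strong CAMTA1 peaks with no peak of another list within 1 kb (log axis) against the number of peaks in that list (in units of 1000). Right, median log2 ratio of peak area, list over EV, for peaks shared singly with EV, by the summit −log10 p of the EV peak; CAMTA1 (thick blue) runs from 1.94 to 0.49, below the fusions and above YAP5SA, TFE3 and TAZ4SA.

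Shared peaks were larger in the CAMTA1 list. In 86640 pairs, 1 CAMTA1 peak and 1 EV peak overlapped each other and no further peak. The CAMTA1 area was higher in 72986 of these (84.2%), with a median log2 ratio of 1.01 (quartiles 0.40 and 1.86). The summit −log10 p was higher by a median of 1.15, the median widths were 330 bp in CAMTA1 and 209 bp in EV, and the summits lay a median of 23 bp apart. The same positions were therefore called with larger and wider peaks. At EV summits of 3 to 4 the median log2 ratio was 1.94, at 6 to 8 it was 0.98, and at 15 or more it was 0.49. Each of the 5 other lists also had its highest ratio at EV summits of 3 to 4, with 1.59 for YAP5SA, 1.23 for TFE3 and 1.03 for TAZ4SA. The fall was thus not particular to CAMTA1, and the bands were set by the EV summit, which goes with the EV area. Over all pairs the median log2 ratio was 1.34 for TAZ-CAMTA1, 1.27 for YAP-TFE3, 0.40 for YAP5SA, 0.14 for TFE3 and -0.51 for TAZ4SA. CAMTA1 stood below the fusions and above the other lists in each band of the EV summit. Peaks were also joined differently. Of the CAMTA1 peaks, 98351 (44.0%) overlapped 1 EV peak and 16949 (7.58%) overlapped 2, while 139 spanned 5 or more. Area is a significance measure and so depends on read depth, which was not compared between the lists.

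The gained peaks were spread over every chromosome but Y. Chromosomes 2 and 1 had most of them, 351 and 347, and 1 gained peak was on an unplaced contig. Relative to the strong CAMTA1 peaks of the same chromosome, they were most frequent on chromosome 10, at 87.3 per 1000 (Wilson 95% interval 76.7 to 99.2), followed by chromosome 22 at 72.1 (59.9 to 86.5) and chromosome 3 at 64.1 (56.8 to 72.2). The lowest values were 28.9 on chromosome 14 (22.8 to 36.7), 29.8 on chromosome 20 (24.2 to 36.6), and 33.8 on both chromosome 19 and chromosome 5. The intervals of chromosomes 10 and 14 were far apart, and those of neighbours in this order overlapped. On chromosome Y, 0 of 86 strong CAMTA1 peaks were gained.

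The rate of gained peaks tended to be lower where EV peaks were dense, with exceptions. EV had 29.8 peaks per Mb on chromosome 10, 52.6 on chromosome 22, 105 on chromosome 5 and 132 on chromosome 20, while chromosome 21, with 38.1, had 44.0 gained per 1000. Over the 22 autosomes and X, the rank correlation of gained peaks per 1000 with EV peaks per Mb was -0.69 (Pearson -0.66, n = 23). With the ratio of CAMTA1 to EV peaks of the chromosome it was 0.90 (Pearson 0.80). These are descriptions over chromosomes of the same libraries. The first is partly set by the rule, since the bases within 1 kb of an EV peak made up 5.11% of chromosome 10 and 20.1% of chromosome 20. The second relates quantities that share the same lists. Chromosome 10 also had the highest median log2 area ratio of the shared pairs, 1.38, against 0.90 on chromosome 20. For TAZ-CAMTA1, against the same EV list, the rule gave 73.3 gained per 1000 strong peaks on chromosome 22, 65.2 on chromosome 17 and 64.9 on chromosome 10, and 54.7 on chromosome 19, which was among the lowest for CAMTA1. For TAZ4SA it gave 38.7 on chromosome 10 and 15.8 on chromosome 22. Copy number of the chromosomes in SW872 was not tested.

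**Figure D5:**
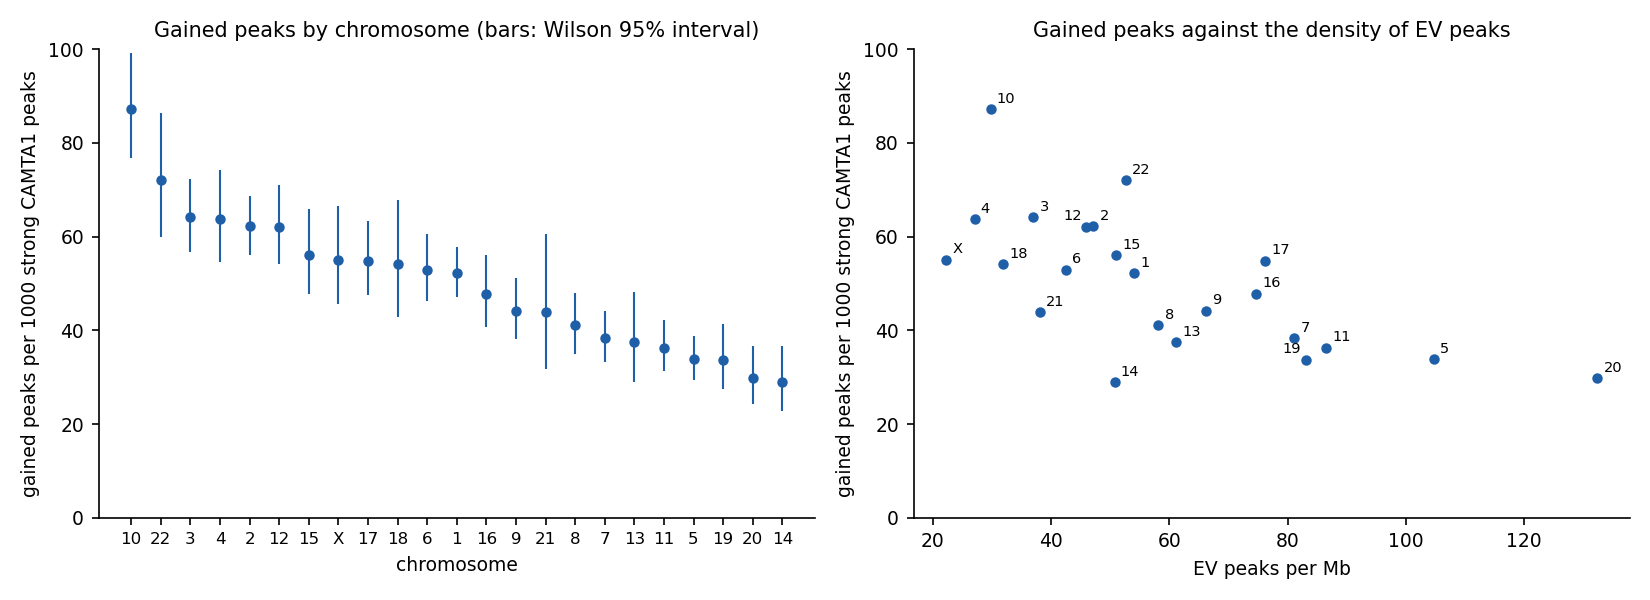
Left, gained peaks per 1000 strong CAMTA1 peaks for 22 autosomes and X, in order, with Wilson 95% intervals. Right, the same values against EV peaks per Mb, with each point labelled by its chromosome; chromosome 10 is highest at 87.3 and chromosome 20, with 132 EV peaks per Mb, is among the lowest at 29.8.

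Most gained peaks had no other gained peak within 50 kb. The median distance from a gained peak to the next gained peak was 152272 bp (quartiles 42479 and 365878 bp), and 197 (5.44%) had one within 1 kb. Strong shared peaks, which are far more numerous, were a median of 4055 bp from the nearest strong shared peak. To the nearest peak of the CAMTA1 list of any class, the median distance was 916 bp for gained and 237 bp for strong shared peaks, and 50.8 and 69.1% had one within 1 kb. Gained peaks were therefore more isolated within their own list as well, a distance that the rule did not use directly but that goes with the distance to EV. When gained peaks up to 50 kb apart were joined, 2615 (72.2%) stood alone, 372 runs held 2 and 80 runs held 3 or more members.

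The run with the most members lay on chromosome 15 from 59467122 to 59576516 and held 6 gained peaks in 109395 bp. Their areas ran from 317 to 1201, their summits from 6.08 to 7.90, and each was held by 4 or 5 of the other lists. The widest of the 6, from 59560385 to 59561012, was 628 bp wide and also had the largest area. In this interval CAMTA1 had 21 peaks and EV 7, with 20 for TAZ-CAMTA1, 15 for TFE3, 14 for YAP5SA, 13 for TAZ4SA and 12 for YAP-TFE3. A low EV count there is set by the rule, which keeps EV peaks 1 kb away from each member. A run of 5 on chromosome 2 from 31330891 to 31378737 was the most compact of the runs of 5, at 47847 bp, with 21 CAMTA1 and 7 EV peaks and 31 in TAZ-CAMTA1.

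Shares of the 28 lost peaks have wide intervals. TAZ-CAMTA1 held 17 of them (60.7%, 42.4 to 76.4%), YAP-TFE3 14 (50%, 32.6 to 67.4%) and TFE3 7 (25%, 12.7 to 43.4%), with intervals below those of the gained peaks in the same lists. YAP5SA held 19 (67.9%, 49.3 to 82.1%) and TAZ4SA 16 (57.1%, 39.1 to 73.5%), with intervals that overlapped those of the gained peaks. In the order named, these lists held 99.8, 99.7, 99.3, 98.9 and 92.9% of all strong EV peaks. Of all EV peaks, weak ones included, they held 85.6, 81.0, 69.2, 71.1 and 50.5%. Only 1 was in all 5 other lists and 1 was in none. The largest by area was on chromosome 1 from 2626987 to 2627619, with an area of 895 and a summit of 6.55. The nearest CAMTA1 peak was 1079 bp away, just beyond the limit, and of the other lists TAZ4SA had a peak there, of area 1072, and YAP5SA one of 305. On chromosome 15 from 20133919 to 20134471 the EV area was 777, with 425 in TAZ4SA and 363 in YAP5SA, and no TAZ-CAMTA1 or TFE3 peak. On chromosome 7 from 97613846 to 97614386 it was 697, beside 746 in TAZ-CAMTA1. Smaller peaks were there in TFE3 (168), YAP5SA (104) and YAP-TFE3 (43.0), and TAZ4SA had none. That site was thus missing with full-length CAMTA1 and TAZ4SA and present in every other list.

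The lost peak with the highest summit, 7.16, was on chromosome 5 from 42811904 to 42812487, with an area of 676, and TAZ-CAMTA1 had a peak there of area 304. The second by summit, 7.08, was on chromosome 11 from 126443659 to 126443819, 1097 bp from a CAMTA1 peak. A summit of 6.76 was reached on chromosome 14 from 97651624 to 97651777. The lost peak on chromosome 5 from 49418130 to 49418659, with an area of 562 and a summit of 6.72, lay 12516 bp from the longest stretch of that chromosome without a peak in any list. Such stretches, 3007469 bp long on chromosome 5, mark where no list had calls. Of the lost peaks, 7 of 28 (25%, 12.7 to 43.4%) lay within 1 Mb of the longest such stretch of their chromosome, against 1.69% of strong EV peaks and 0.552% of gained peaks. This comparison was chosen after seeing the positions.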

How the data were processed

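ATAC-seq libraries (20, of which 3 CAMTA1 and 3 EV) were made from separately transduced SW872 cells. Per the methods, NGmerge trimmed the reads, BWA-MEM aligned them, and Genrich called the peaks in its mode for ATAC-seq. Duplicates, a blacklist of hg19, the mitochondrial genome and some contigs were removed. The submitters' processing notes instead name Bowtie 0.12.2 and mm8. The positions fit hg19: the last peak on chromosome 1 ends at base 249240671, past the end of that chromosome in hg38. Those methods describe calling per replicate and a consensus from DiffBind, whereas the files hold 1 list per vector. How these lists were made from the libraries is not given in the sources used here, so what a summit −log10 p or an area summarises (1 library or several) is unsettled. Depth per library was not analysed.

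The authors deposited, for each peak, a signal (the area under the significance curve), a summit −log10 p, a −log10 q and a capped score, of which the q and the score were not used. Area, −log10 p, width and position were used. Overlaps and gaps were computed with numpy 2.4.6 and pandas 2.3.3, tested on simulated data, and checked against bedtools 2.31.1 (differences of 0). Wilson 95% intervals (scipy 1.17.1) cover counting error only and treat peaks as independent. Columns of other samples numbered 0.

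Named peaks are the 5 gained and 5 lost of largest area, the 5 of each with the highest summit, members nearest the limits, and the run of gained peaks with most members. The members, lists and rules were chosen with earlier results of these data known. Positions count from 1. Genes, motifs and sequences were not analysed here, since the reference at hand was of another build.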

Additional observations from a re-analysis of the deposited data

How the results depend on the processing

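Of 58 recomputed values of the main comparisons, 37 moved, by over 1.5 times for a count or by more than the counting error for a share or ratio, and 21 did not. Gained peaks outnumbered lost peaks under every setting run. With a summit limit of 4, 31639 peaks were gained and 7136 lost, a ratio of 4.43. With a limit of 8, 306 were gained and 0 lost. Asking only for no overlap gave 58 lost peaks, and asking for no peak within 5 kb gave 2111 gained and 14 lost. With both lists cut to 171102 peaks, 68 were lost by summit (ratio 53.3) and 58 by area (ratio 62.4), while 3622 stayed gained, since the peaks removed from CAMTA1 were weak by construction. With equal numbers of strong peaks, an alternative added after seeing the data, 433 were gained (ratio 15.5), and with equal numbers of all peaks as well 433 were gained and 68 lost (ratio 6.37). An overlap of 50% of both peaks left 74518 shared peaks in each list.

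The shares of gained peaks held by TAZ-CAMTA1, YAP-TFE3, TFE3, YAP5SA and TAZ4SA were 64.0, 72.4, 51.5, 53.5 and 30.8% when 50% of both peaks had to overlap, 96.7, 99.7, 97.1, 94.8 and 83.0% for gained peaks with summits of 8 or more, and 92.3, 96.5, 85.8, 86.1 and 61.3% with a peak within 1 kb, a setting added after seeing the data. With 152702 peaks from every list, the values that moved were 78.7% for TAZ-CAMTA1, 88.2% for YAP-TFE3 and 72.7% for YAP5SA. TFE3, at 82.6%, then stood above TAZ-CAMTA1, and it also did at 97.1 against 96.7% for summits of 8 or more. YAP-TFE3 held the largest share and TAZ4SA the smallest in each of these settings. The shares of lost peaks ran from 14.3 to 67.9% over all lists and settings.

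No paired analysis was possible because each vector has 1 list, without values for each library. Leaving out each library and blocking on the replicate number, both planned, were not run for that reason. Planned results on genes and motifs were not run either, for want of an hg19 annotation and genome. Causes of these changes were not tested unless stated.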

Other observations

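Chromosome 13 was the 1 autosome with fewer CAMTA1 than EV peaks, 6089 against 7035, although its strong peaks were 1521 against 1051. The deficit lay in 3 of its 10-Mb windows, from 60 to 70 and from 90 to 110 Mb. There EV had 5266 and CAMTA1 3557 peaks, a ratio of 0.675, while strong peaks numbered 549 in EV and 666 in CAMTA1. In the other 7 windows of that chromosome with at least 100 EV peaks the ratio was 1.43. Gained peaks followed the same division, with 8 in the 3 windows (12 per 1000 strong CAMTA1 peaks) and 49 in the others (57.5 per 1000). A low rate where EV peaks are dense is partly set by the rule, which leaves out CAMTA1 peaks within 1 kb of an EV peak. The median log2 area ratio of the shared pairs was 0.59 on this chromosome, below that of every other autosome and X. In the window from 90 to 100 Mb the peak counts of the lists were 2574 for YAP5SA, 2437 for EV, 2213 for TAZ4SA, 1803 for YAP-TFE3, 1697 for TAZ-CAMTA1, 1610 for CAMTA1 and 915 for TFE3. Of 291 windows over the autosomes and X with at least 100 EV peaks, 14 had more EV than CAMTA1 peaks. Chromosome 5 had more of these windows than chromosome 13, at milder ratios of CAMTA1 to EV peaks, from 0.903 to 0.964. Their gained peaks per 1000 strong CAMTA1 peaks ran from 8.77 (40 to 50 Mb) to 66.7 (160 to 170 Mb). The window with most gained peaks, 53, was on chromosome 22 from 30 to 40 Mb. Why the windows differ was not tested. They were chosen after seeing the data.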
